A study of Oryza sativa with 8 samples.

Results

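Aerial tissue of the submergence-tolerant rice M202(Sub1) was compared with that of the intolerant M202 after both had spent 24 h completely under water. The comparison used 4 of the study's 8 arrays, those labelled as submerged and sampled at day 1, with 2 arrays of M202(Sub1) and 2 of M202. The other arrays held M202(Sub1) and M202 plants that had not been submerged, sampled at day 0, again 2 of each. All plants were 14 d old and were grown in pots of soil in a greenhouse. M202(Sub1) is labelled as carrying Sub1A and M202 as lacking it, and the design text calls the 2 arrays of a group independent biological replicates. M202(Sub1) is a line into which the SUB1 region was crossed, so the effect of Sub1A cannot be told apart from that of any other introgressed segment. Without submergence no plants were sampled at day 1, so submergence and day cannot be told apart, while the 2 genotypes were always compared on the same day.

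Sub1A encodes a transcription factor of the ethylene response factor family. Under water, ethylene is trapped in the shoot and oxygen and light become scarce, so that rice turns to glycolysis and ethanol fermentation. Plants without Sub1A elongate, using gibberellin-driven growth and spending sugar reserves, whereas Sub1A is known to restrain elongation, sugar use and chlorophyll loss during submergence.

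The array held 57258 non-control probe sets, of which 34355 had a mean deposited log2 value at or above the 40th percentile, 2.23, and were tested. The deposited values ended at a floor of 2.22, on which 37.3% to 38.8% of the probe sets of each array lay. Replicate arrays of submerged plants correlated at r = 0.998 in both genotypes, and arrays of different genotypes after submergence at 0.986. Among the markers of green tissue, RBCS, the small subunit of Rubisco, and CAB2R, a light-harvesting protein, stood between 16.23 and 16.60 on the submerged arrays of both genotypes, and none of the 3 green markers measured was called. These levels lie close to the highest deposited value, 16.93, and the third marker, RBCS1, lay near the floor, so the green markers could show little change. Of 6 root-preferential genes, 4 lay near the floor on all arrays, and their summed linear level was 785 and 785 in submerged M202(Sub1), against 1148 and 1230 in submerged M202, most of it from the silicon channel gene Lsi1. The 2 root-preferential genes above the floor were called in opposite directions, Lsi1 lower and NRT2.3 higher. Of 4 seed storage and 3 pollen or flower genes, 2 in each list passed the filter and none of these was called. The part of tissue makeup in the results was not tested, and in such bulk samples fewer cells of a type and less RNA per cell cannot be told apart. SUB1A, SUB1B, SUB1C and ADH1 were not analysed here, so the genotype labels were not checked on the introgressed gene.

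After submergence the genotypes differed widely. limma, a linear model fitted across all probe sets and all 8 arrays, called 7123 of the 34355 probe sets (20.7%) at a Benjamini-Hochberg adjusted p below 0.05. M202(Sub1) was higher for 3638 (10.6%) and lower for 3485 (10.1%), and 10943 probe sets had an unadjusted p below 0.05. Most differences were small, with a median size of 0.52 on the log2 scale, and 482 probe sets (1.4%) were called higher by at least 2-fold, against 694 (2.02%) called lower by as much. The 2 arrays of M202(Sub1) did not overlap the 2 of M202 for any of the calls, as was also true of 50.3% of all probe sets tested. With 1 probe set standing for each gene, 4694 of 16032 genes were called (29.3%), 2334 higher (14.6%) and 2360 lower (14.7%). Each gene list below is read against these gene shares. The differences between genotypes without submergence were far fewer, at 329 genes (2.05%), 117 higher (0.73%) and 212 lower (1.32%).

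The balance of directions depends on the scale. On the deposited scale 51.1% of the calls were higher in M202(Sub1), and 49.6% after quantile normalization. When each array was centred on its poly(A) spike-in controls, the median difference over all probe sets moved by -0.27 and 9.38% of 14108 calls were higher. Counts below are on the deposited scale, and the counts after spike-in centring are given where they turn the balance of a list. Fitted on the 4 submerged arrays alone, 3000 probe sets were called. That smaller fit ended the calls of EIL1A, SODCC.2, H2B.5, ZEP, SAPK3, SAPK6, NYC1, CRYD, ABA8OX2, SDH7, GA20OX2, KAO, CIPK12, BZIP02, HATB, IAA9, NAS1, MFT1 and NRT2.3 among the genes named below, with adjusted p-values between 0.0502 and 0.107.

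**Figure D1:**
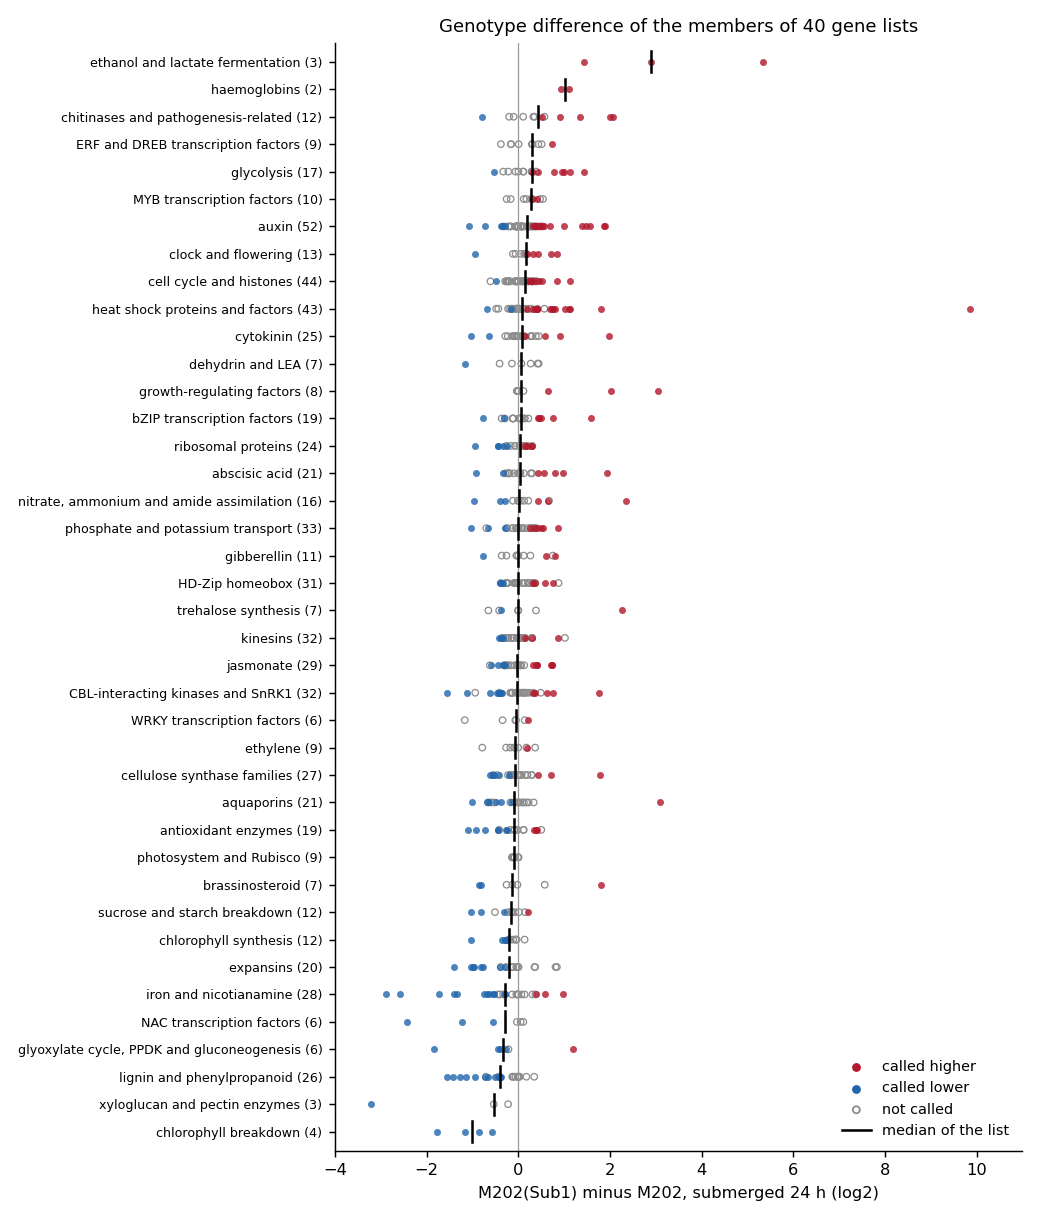
Each point is a gene, placed by its M202(Sub1) minus M202 difference after 24 h of submergence (log2, horizontal axis) in 40 gene lists (vertical axis, genes tested in brackets, ordered by the median, black bar). Red points were called higher, blue points lower and open grey points not called by limma, and the fermentation list stands at the top with all 3 genes called higher while the chlorophyll breakdown list stands at the bottom with all 4 called lower.

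Of 4 fermentation genes on the array 3 passed the filter, and all 3 were called higher in submerged M202(Sub1), also after spike-in centring. ADH1 was not analysed here. PDC1 on chromosome 5, a pyruvate decarboxylase that commits pyruvate to ethanol, stood at 10.66 and 10.62 in submerged M202(Sub1), against 5.39 and 5.20 in submerged M202. Both M202(Sub1) arrays lay far above both M202 arrays, and the difference was 5.34 ± 0.12 (SE; 2 arrays each, adjusted p 4.4e-05), or 40.6-fold. Non-submerged PDC1 was 2.52 and 2.26 in M202(Sub1) and 2.22 and 2.26 in M202, close to the floor in both genotypes.

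Adh2 on chromosome 11, an alcohol dehydrogenase that makes ethanol from acetaldehyde, was 11.41 and 11.32 in submerged M202(Sub1), against 8.51 and 8.44 in submerged M202. The groups were well apart (difference 2.89 ± 0.06, adjusted p 3.38e-05), while all 4 non-submerged arrays read 2.44, the lowest value of this probe set. PDC2 on chromosome 3, a second pyruvate decarboxylase, was 13.72 and 13.69 in submerged M202(Sub1), against 12.32 and 12.25 in submerged M202 (difference 1.42 ± 0.03, adjusted p 5.5e-05). In both genotypes the 3 genes were higher after submergence, and none was called between the genotypes without it.

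**Figure D2:**
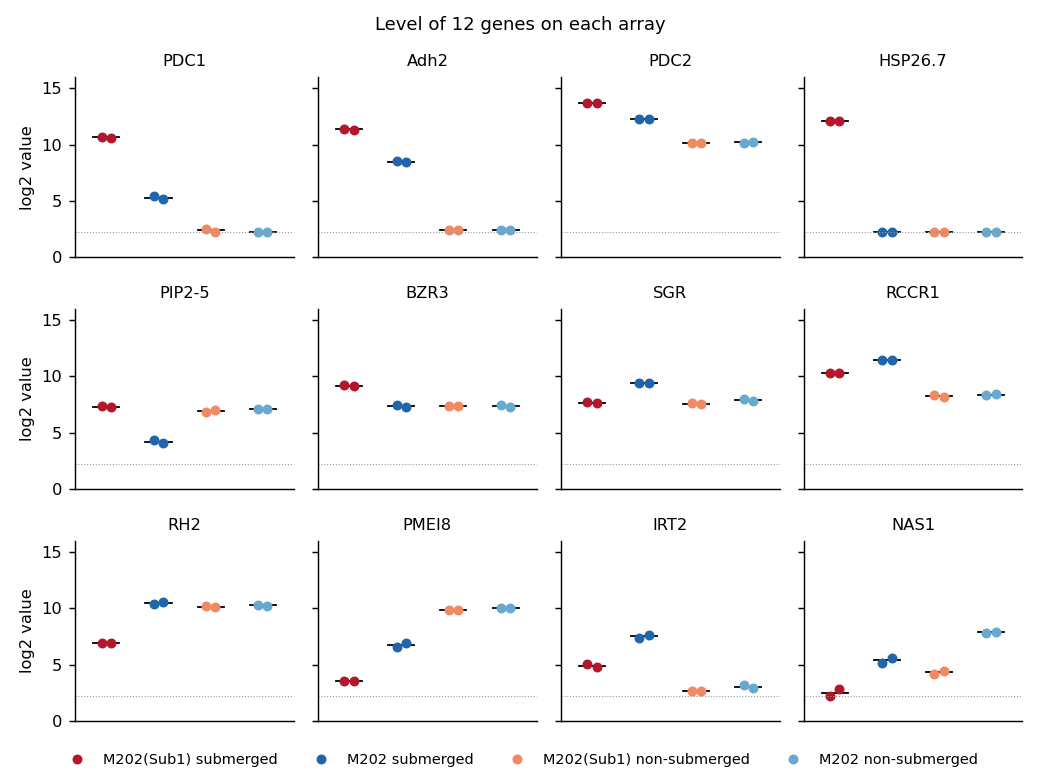
Deposited log2 value (vertical axis) of 12 genes on each of the 8 arrays, with points for single arrays and a black bar for the mean of 2, in the order submerged M202(Sub1), submerged M202, non-submerged M202(Sub1) and non-submerged M202; the dotted line is the floor of 2.22. HSP26.7 left the floor in submerged M202(Sub1) alone, PIP2-5 and RH2 differed mainly after submergence, and NAS1 was lower in M202(Sub1) with and without it.

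Of the 17 glycolysis genes tested, 7 were higher and 1 lower in M202(Sub1), with a list median of 0.29 beside a median of 0 over all probe sets. After spike-in centring the count was 5 higher and 4 lower. AldC-1, a cytosolic aldolase, was 14.96 and 15.02 in submerged M202(Sub1), against 13.56 and 13.57 in submerged M202 (difference 1.42 ± 0.03, adjusted p 4.11e-05). GAPC3, a cytosolic glyceraldehyde-3-phosphate dehydrogenase, was 15.04 and 14.95, against 13.91 and 13.83 in M202 (1.12 ± 0.09, adjusted p 0.00206). For both genes each M202(Sub1) array exceeded each M202 array.

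Genes that feed sugar into glycolysis were called in both directions on the deposited scale only. Among 12 sucrose and starch breakdown genes, 1 was higher and 3 lower, against 0 higher and 9 lower after spike-in centring. SUS1, a sucrose synthase, was 12.35 and 12.40 in submerged M202(Sub1), against 13.20 and 13.18 in submerged M202 (-0.82 ± 0.05, adjusted p 0.000925). SUS4, another sucrose synthase, was 12.98 and 12.96, against 12.77 and 12.76 (0.20 ± 0.03, adjusted p 0.00708), a small difference that became -0.069 and was no longer called after spike-in centring. Non-submerged plants of both genotypes read 9.44 to 9.50 for SUS4.

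Of 6 genes of the glyoxylate cycle, pyruvate phosphate dikinase and gluconeogenesis, 1 was higher and 4 lower. ICL, the isocitrate lyase that opens the glyoxylate cycle, was 10.68 and 10.66 in submerged M202(Sub1), against 12.51 and 12.52 in submerged M202 (-1.84 ± 0.36, adjusted p 0.0244). The submerged arrays were tight, but the non-submerged arrays, which share the estimate of spread, ran from 2.24 to 3.49. The ICL call was lost without any 1 of the 4 submerged arrays, with adjusted p-values between 0.0959 and 0.103. Among 7 trehalose synthesis genes 1 was higher and 1 lower, or 1 and 4 after spike-in centring. The higher one was TPP1, a trehalose-6-phosphate phosphatase, at 9.62 and 9.67 in submerged M202(Sub1), against 7.57 and 7.19 in submerged M202 (2.26 ± 0.15, adjusted p 0.00109). Its level in non-submerged plants was 8.77 to 9.14, so submerged M202(Sub1) lay above that range and submerged M202 below it.

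Chlorophyll breakdown was the list with all members lower in M202(Sub1), 4 of 4 with a median of -1.01, also after spike-in centring. SGR, the stay-green protein that takes the magnesium out of chlorophyll, was 7.76 and 7.61 in submerged M202(Sub1), against 9.46 and 9.45 in submerged M202. The difference was -1.77 ± 0.07 (adjusted p 0.000309), and the non-submerged arrays of both genotypes, at 7.54 to 7.96, lay near the level of submerged M202(Sub1). RCCR1, a red chlorophyll catabolite reductase, was 10.30 and 10.28, against 11.48 and 11.45 in submerged M202 (-1.17 ± 0.07, adjusted p 0.000869), with both genotypes above their non-submerged level. The chlorophyll b reductase genes NYC1 and NOL differed by -0.85 ± 0.14 (adjusted p 0.014) and -0.58 ± 0.04 (adjusted p 0.00132). The NYC1 call was lost without M202 replicate 1 (adjusted p 0.056) or M202(Sub1) replicate 1 (0.0702) of the submerged arrays.

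Chlorophyll synthesis genes were lower too, 5 of 12 with none higher. PORA, a protochlorophyllide oxidoreductase, was 12.72 and 12.67 in submerged M202(Sub1), against 13.75 and 13.69 in submerged M202 (-1.03 ± 0.04, adjusted p 0.000198). None of 9 photosystem and Rubisco genes was called, with differences between -0.14 and 0.00, and 8 of the 9 were called lower after spike-in centring.

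In the ethylene list, 1 of 9 genes was called, as higher, whereas after spike-in centring 6 were lower and none was higher. EIL1A, a transcription factor of the ethylene pathway, was 14.35 and 14.32 in submerged M202(Sub1), against 14.17 and 14.12 in submerged M202 (0.19 ± 0.04, adjusted p 0.0355). This difference became -0.086 after spike-in centring, and the call was lost after quantile normalization (adjusted p 0.0905), without a filter (0.0701) and without any 1 of the 4 submerged arrays or of the 2 non-submerged M202(Sub1) arrays (0.0731 to 0.137). The receptor ETR2 was 11.71 and 11.82 in submerged M202(Sub1), against 11.84 and 11.83 in submerged M202, and the receptor ERS1 was 11.46 and 11.44, against 11.28 and 11.27 (adjusted p 0.0646). ACO1, which makes ethylene, and EIN2, a central signal transducer, differed by -0.09 ± 0.06 and -0.01 ± 0.08, within about 2 standard errors. Of 9 other ERF and DREB transcription factor genes 1 was higher (1 higher and 3 lower after spike-in centring), namely AP2-5 (0.73 ± 0.07, adjusted p 0.0026).

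Of 11 gibberellin genes, 2 were higher and 1 lower. After spike-in centring 2 were higher and 4 lower. GA20OX2, a gibberellin 20-oxidase that makes the direct precursors of active gibberellin, was 9.54 and 9.39 in submerged M202(Sub1), against 8.75 and 8.57 in submerged M202 (0.80 ± 0.11, adjusted p 0.00838). The gibberellin receptor gene gid1 was 12.11 and 12.18, against 11.54 and 11.53 (0.61 ± 0.08, adjusted p 0.0064). KAO, an early enzyme of the pathway, was 8.46 and 8.38, against 9.28 and 9.10 (-0.77 ± 0.11, adjusted p 0.00963), a call lost without M202(Sub1) submerged replicate 2 (adjusted p 0.0526).

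The DELLA growth repressors are of interest because Sub1A is known to act through them. SLR1, the rice DELLA protein, was 9.19 and 9.15 in submerged M202(Sub1), against 9.04 and 8.78 in submerged M202. The groups did not overlap, but the difference of 0.26 ± 0.11 was not called (adjusted p 0.17). SLRL1, a DELLA-like repressor, was 4.29 and 5.82 in submerged M202(Sub1), against 3.97 and 4.63 in submerged M202, with overlapping arrays (0.75 ± 0.53, adjusted p 0.412).

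In the abscisic acid list, 5 of 21 genes were higher and 2 lower, against 4 higher and 5 lower after spike-in centring. The 2 abscisic acid 8'-hydroxylases, which break the hormone down, went in opposite directions. ABA8OX1 was 9.50 and 9.44 in submerged M202(Sub1), against 8.52 and 8.46 in submerged M202 (0.98 ± 0.15, adjusted p 0.0113), with 4.37 to 5.09 in non-submerged plants. ABA8OX2 was 6.24 and 5.90, against 7.04 and 6.96 in submerged M202 (-0.93 ± 0.15, adjusted p 0.0132), with 9.72 to 9.98 in non-submerged plants. In both, the change against non-submerged plants ran the same way in the 2 genotypes. The test of a difference between these changes gave an adjusted p of 0.0168 for ABA8OX1, which changed more in M202(Sub1), and 0.0507 for ABA8OX2, which missed the threshold. The ABA8OX1 call was lost without any 1 of the 4 submerged arrays (adjusted p 0.0502 to 0.0614), and the ABA8OX2 call without M202 submerged replicate 1 (0.0645) or 2 (0.0579).

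ZEP, a zeaxanthin epoxidase that acts early in making abscisic acid, was 10.29 and 10.36, against 10.59 and 10.72 in submerged M202 (-0.33 ± 0.05, adjusted p 0.0127), a call lost without M202(Sub1) submerged replicate 1 (adjusted p 0.0591). The stress-activated protein kinase genes SAPK3 and SAPK6 were higher by 0.56 ± 0.07 and 0.44 ± 0.06 (adjusted p 0.0064 and 0.0101), the SAPK6 call being lost after spike-in centring (adjusted p 0.187). PP2C51, a protein phosphatase of the pathway, was 4.08 and 4.28 in submerged M202(Sub1) and 2.25 on all other arrays, so its difference of 1.93 ± 0.06 is set by the floor, and it was no longer called when values below 4 were raised to 4 (adjusted p 0.138). The transcription factor TRAB1 and the phosphatase PP2C30 differed by 0.27 ± 0.14 (adjusted p 0.278) and -0.23 ± 0.28 (adjusted p 0.698).

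Among 7 dehydrin and LEA genes, which encode protective proteins of drying cells, 1 was lower after submergence and 3 were lower without it. The list median was 0.07 after submergence and -1.40 without it. The genotype difference after submergence minus that without it was called positive for 4 genes and negative for 1, Dhn1. Over all genes these shares were 9.1% and 8.61%. Dhn1 was 4.58 and 4.42 in submerged M202(Sub1), against 5.58 and 5.76 in submerged M202 (-1.17 ± 0.10, adjusted p 0.00201), both far under the 9.60 to 9.85 of non-submerged plants. Its other 2 probe sets, near the floor, differed by 0.20 and 0.09 and were not called.

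The auxin list leaned upward, with 15 of 52 genes higher and 5 lower, but the balance turned after spike-in centring, to 9 higher and 15 lower. IAA9, an auxin-response repressor, was 6.46 and 6.77 in submerged M202(Sub1), against 4.93 and 4.51 in submerged M202 (1.90 ± 0.17, adjusted p 0.00273). All 4 non-submerged arrays read the same 4.51 as M202 submerged replicate 2. This was the lowest value of the probe set, so the size of the difference may depend on that limit. GH3.2, which conjugates auxin to amino acids, was 4.48 and 4.49, against 2.47 and 2.78 (1.86 ± 0.11, adjusted p 0.000886). PIN5A, of the auxin carrier family, was 7.71 and 7.92, against 8.94 and 8.83 (-1.07 ± 0.08, adjusted p 0.00153).

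Of 25 cytokinin genes 4 were higher and 2 lower, against 3 and 10 after spike-in centring. CKX5, a cytokinin oxidase that degrades the hormone, was 8.38 and 8.65 in submerged M202(Sub1), against 6.66 and 6.43 in submerged M202 (1.97 ± 0.18, adjusted p 0.00276). LOGL7, of the family that activates cytokinins, was 8.27 and 8.18, against 9.26 and 9.27 (-1.04 ± 0.05, adjusted p 0.000358). The response regulator RR9 was higher by 0.90 ± 0.05 (adjusted p 0.000737) after submergence and lower by 0.39 without it (adjusted p 0.0393), and the 2 differences had opposite signs, with an interaction adjusted p of 0.00189.

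Among 7 brassinosteroid genes 1 was higher and 2 lower. BZR3, of the family of brassinosteroid-response transcription factors, was 9.20 and 9.16 in submerged M202(Sub1), against 7.47 and 7.29 in submerged M202 (1.80 ± 0.10, adjusted p 0.000763). The 4 non-submerged arrays read 7.25 to 7.50, the level of submerged M202. In the jasmonate list 7 of 29 genes were higher and 4 lower, against 3 and 12 after spike-in centring. The jasmonate receptor gene COI1 was 12.64 and 12.74, against 11.93 and 11.97 (0.74 ± 0.04, adjusted p 0.00086), and OPR7, of jasmonate synthesis, was 8.98 and 9.05, against 9.59 and 9.62 (-0.59 ± 0.04, adjusted p 0.00129).

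Calls among expansin and lignin genes were all lower in M202(Sub1) on the deposited scale. Of 20 expansins, proteins that loosen the wall of growing cells, 8 were lower and none was called higher, 12 lower after spike-in centring, and 7 lower and 1 higher after quantile normalization. EXP2 was 7.71 and 7.71 in submerged M202(Sub1), against 9.19 and 9.05 in submerged M202 (-1.41 ± 0.06, adjusted p 0.000342), with 9.65 to 9.93 in non-submerged plants. PMEI8, a pectin methylesterase inhibitor and the called member of 3 xyloglucan and pectin genes, was 3.55 and 3.53, against 6.60 and 6.89 in submerged M202. Its difference was -3.21 ± 0.10 (adjusted p 0.000131), and the non-submerged arrays stood at 9.85 to 9.99, so that both genotypes lay below them after submergence and M202(Sub1) lay further down.

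Lignin and phenylpropanoid genes were lower in 12 of 26 cases and higher in none, with a median of -0.40. The cinnamyl alcohol dehydrogenase CAD8A was 8.30 and 8.01 in submerged M202(Sub1), against 9.69 and 9.73 in submerged M202 (-1.55 ± 0.15, adjusted p 0.00344), with 2.68 to 3.01 in non-submerged plants. The laccase LAC4 was 5.69 and 5.66, against 7.01 and 7.19 (-1.43 ± 0.09, adjusted p 0.000882), with 9.77 to 10.00 in non-submerged plants. CAD8A and LAC4 thus moved in opposite directions under submergence and were both lower in M202(Sub1) after it.

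Of 27 genes of the cellulose synthase families 3 were higher and 5 lower. CSLC9 was 6.14 and 6.19 in submerged M202(Sub1), against 4.47 and 4.29 in submerged M202 (1.78 ± 0.08, adjusted p 0.000341). CESA1, a cellulose synthase subunit, was 11.05 and 11.17, against 11.73 and 11.74 (-0.62 ± 0.05, adjusted p 0.00142).

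Heat shock proteins and factors were higher in 15 of 43 cases and lower in 2, against 9 higher and 12 lower after spike-in centring. HSP26.7, a small heat shock protein of the chloroplast, was 12.10 and 12.12 in submerged M202(Sub1) and 2.25 on each of the other 6 arrays. The other arrays lay at the floor, so the difference of 9.86 ± 0.05 (adjusted p 1.73e-06) depends on that floor. The heat shock factor gene HSF07 was 9.82 and 9.85, against 8.04 and 8.04 in submerged M202 (1.80 ± 0.09, adjusted p 0.00043).

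Of 12 chitinase and pathogenesis-related genes 5 were higher and 1 lower, with 4 and 2 after spike-in centring. Cht2, a chitinase, was 9.13 and 9.11 in submerged M202(Sub1), against 7.03 and 7.22 in submerged M202 (1.99 ± 0.07, adjusted p 0.000162), with 9.19 to 9.43 in non-submerged plants. Chib3H-a, another chitinase, was 4.41 and 4.27, against 2.35 and 2.22 in submerged M202, close to the floor (2.06 ± 0.06, adjusted p 0.000106). Antioxidant enzymes were higher in 3 of 19 cases and lower in 7. The catalase CAT-A was 13.73 and 13.72, against 14.70 and 14.60 (-0.93 ± 0.05, adjusted p 0.000641). The superoxide dismutase SODCC.2 was higher by 0.41 ± 0.05 (adjusted p 0.00502), a call lost after spike-in centring (adjusted p 0.194).

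Among iron and nicotianamine genes there were calls with and without submergence. Of 28 tested, 12 were lower and 3 higher in submerged M202(Sub1), and 5 were lower in non-submerged M202(Sub1). NAS1, a nicotianamine synthase on chromosome 3 that makes a metal chelator, was 2.22 and 2.81 in submerged M202(Sub1), against 5.16 and 5.63 in submerged M202 (-2.88 ± 0.26, adjusted p 0.00255). M202(Sub1) replicate 1 read the floor value, so this difference could be larger than measured. In non-submerged plants it was 4.20 and 4.45, against 7.85 and 7.90 in M202 (-3.55 ± 0.26, adjusted p 0.00567), and the interaction, which depends on that floor value, was not called (adjusted p 0.344). Its neighbour in gene order, NAS2, was also lower in both settings, by 1.34 and 2.16 on the log2 scale, and NAS3 on chromosome 7 was lower by 0.74 and 0.42.

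The metal transporter gene Nramp1 was 7.14 and 7.01 in submerged M202(Sub1), against 8.82 and 8.80 in submerged M202 (-1.73 ± 0.06, adjusted p 0.000186). In non-submerged plants it differed by -0.93 ± 0.06 (adjusted p 0.00416), and the interaction was called (adjusted p 0.00822). IRT2, an iron transporter, was 5.01 and 4.80, against 7.38 and 7.61 in submerged M202 (-2.59 ± 0.15, adjusted p 0.000763), but its difference without submergence was not called (-0.37 ± 0.15, adjusted p 0.453). YSL12, of a family that carries metal chelates, was 11.80 and 11.91, against 10.88 and 10.87 (0.98 ± 0.05, adjusted p 0.000613). NAS2 and NAS3 were picked after their values were seen, and so were the genes of the list that are drawn without being described.

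**Figure D3:**
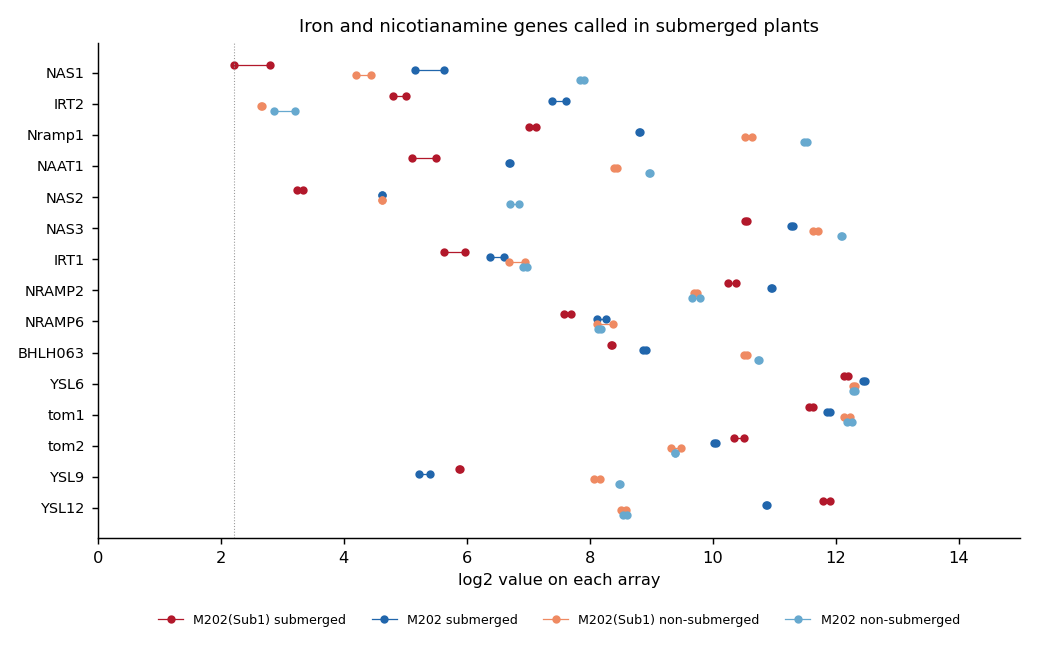
Deposited log2 values (horizontal axis) of the 15 iron and nicotianamine genes called between submerged M202(Sub1) and submerged M202, ordered by their difference with the most negative at the top; each point is 1 array, lines join the 2 arrays of a group and the dotted line is the floor. From NAS1 down to tom1 the submerged M202(Sub1) arrays lie to the left of those of submerged M202, and for tom2, YSL9 and YSL12 to the right.

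The 2 non-symbiotic haemoglobin genes tested were higher in M202(Sub1) with and without submergence, each by the probe set that stood for it. NSHB1 was 13.20 and 13.37 in submerged M202(Sub1), against 12.16 and 12.18 in submerged M202 (1.11 ± 0.09, adjusted p 0.00186), and the difference in non-submerged plants was 0.78 ± 0.09 (adjusted p 0.0236). NSHB2 differed by 0.94 ± 0.07 (adjusted p 0.00136) and, without submergence, by 0.74 ± 0.07 (adjusted p 0.0121). A second probe set of NSHB1 was lower in submerged M202(Sub1), by 0.48 (adjusted p 0.0455), so the direction for this gene is uncertain, and probe sets of such closely related genes may not separate them.

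Nitrate, ammonium and amide assimilation genes were higher in 3 of 16 cases and lower in 3, against 1 and 7 after spike-in centring. NRT2.3, a high-affinity nitrate transporter gene that is also in the root-preferential list, was 5.31 and 5.53 in submerged M202(Sub1), against 2.80 and 3.36 in submerged M202 (2.34 ± 0.19, adjusted p 0.00195). NAR2.2, of the partner proteins of these transporters, was higher by 0.65 ± 0.05 (adjusted p 0.00157), a call lost after spike-in centring (adjusted p 0.0909). The glutamine synthetase genes GLN1-2 and GLN2 were lower by 0.96 and 0.39 (adjusted p 0.000217 and 0.00144), but a second GLN2 probe set differed by 0.35 in the other direction and was not called (adjusted p 0.178).

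Of 21 aquaporins 1 was higher and 6 lower. PIP2-5, of the plasma membrane aquaporins, was 7.36 and 7.27 in submerged M202(Sub1), against 4.33 and 4.10 in submerged M202 (3.10 ± 0.10, adjusted p 0.000162). Non-submerged plants of both genotypes read 6.88 to 7.11, so submerged M202 stood well below the other 3 groups. The silicon channel genes Lsi6 and Lsi1 were lower by 1.02 and 0.68 (adjusted p 0.0025 and 0.000808). Among 33 phosphate and potassium transport genes 6 were higher and 3 lower, against 1 and 14 after spike-in centring, with the potassium transporter gene HAK17 higher by 0.86 ± 0.07 (adjusted p 0.00213).

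Transcription factor lists were short, and their calls are given as counts. NAC genes were lower in 3 of 6 cases. NAC45 was 4.71 and 4.38 in submerged M202(Sub1), against 6.88 and 7.07 in submerged M202 (-2.43 ± 0.40, adjusted p 0.0148), a call lost without any 1 of the 4 submerged arrays (adjusted p 0.0558 to 0.0766). NAC071 was lower by 1.24 after submergence and by 0.63 without it (adjusted p 0.000479 and 0.0139). After submergence its other probe sets gave -0.64 and -0.44 and were not called (adjusted p 0.328 and 0.354). Of 19 bZIP genes 5 were higher and 2 lower, against 2 and 8 after spike-in centring, and BZIP02 was higher by 1.58 ± 0.18 (adjusted p 0.00498). The WRKY list had 1 of 6 higher and none lower (3 lower and none higher after spike-in centring), the MYB list 2 of 10 higher and none lower (2 lower and none higher), and the HD-Zip list 4 of 31 higher and 3 lower (1 and 15).

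Clock and flowering genes were higher in 5 of 13 cases and lower in 1, with 2 and 2 after spike-in centring. PRR1, a clock component, was 9.58 and 9.64 in submerged M202(Sub1), against 8.96 and 8.82 in submerged M202 (0.72 ± 0.06, adjusted p 0.00195). CCA1, a morning clock gene, was 9.27 and 9.23, against 10.27 and 10.14 (-0.95 ± 0.08, adjusted p 0.00237). CRYD, of the cryptochrome family, was higher by 0.83 ± 0.09 (adjusted p 0.00494).

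Genes of growth and signalling were mixed. Growth-regulating factors, transcription factors of expanding organs, were higher in 3 of 8 cases. GRF7 was 5.91 and 5.25 in submerged M202(Sub1), against 2.55 and 2.53 in submerged M202 and 2.52 in all non-submerged plants (3.04 ± 0.21, adjusted p 0.00121). M202 lay at or near the lowest value of this probe set, so the size of the difference is set by that limit. Cell cycle and histone genes were higher in 9 of 44 cases and lower in 1, against 3 and 6 after spike-in centring, with the histone gene H2B.5 higher by 1.14 ± 0.15 (adjusted p 0.00825). Ribosomal protein genes were higher in 4 of 24 cases and lower in 5, against 0 and 12 after spike-in centring. Of 32 kinesins 3 were higher and 3 lower (1 and 12 after spike-in centring). RPS15, a ribosomal protein, was lower by 0.94 after submergence and by 0.67 without it (adjusted p 0.00195 and 0.0242). CBL proteins, CBL-interacting kinases and SnRK1 kinases act in calcium and energy signalling. Of 32 genes in this list 5 were higher and 8 lower, with CIPK12 higher by 1.75 ± 0.18 (adjusted p 0.00394) and CIPK16 lower by 1.55 (adjusted p 0.00195). A second CIPK12 probe set gave 0.67 and was not called (adjusted p 0.0559).

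The named genes with the largest differences included several outside these lists. SMR1 was 12.39 and 12.57 in submerged M202(Sub1), against 8.65 and 8.71 in submerged M202 (3.80 ± 0.12, adjusted p 0.000139), with 3.14 to 3.77 in non-submerged plants. PHT3 was 7.30 and 7.39, against 4.48 and 4.44 (2.89 ± 0.05, adjusted p 2.65e-05), and HIRL2 was 5.84 and 5.50, against 2.51 and 2.43 (3.2 ± 0.15, adjusted p 0.000418). RBM8, an RNA-binding protein of the exon junction complex, was higher by 2.19 ± 0.22 (adjusted p 0.00352).

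RH2 on chromosome 1, an RNA helicase also of the exon junction complex, showed the second lowest difference among named genes. It was 6.88 and 6.92 in submerged M202(Sub1), against 10.43 and 10.56 in submerged M202 (-3.59 ± 0.06, adjusted p 1.77e-05), with 10.08 to 10.26 in non-submerged plants. Submerged M202(Sub1) stood apart from the other 3 groups. MT1B, a metallothionein, was 8.38 and 8.32, against 10.28 and 10.21 (-1.89 ± 0.09, adjusted p 0.000412), and was also lower by 0.61 without submergence (adjusted p 0.0493). MODD, known to weaken abscisic acid signalling by promoting the breakdown of a bZIP factor, was 6.22 and 6.22, against 8.17 and 7.96 (-1.85 ± 0.19, adjusted p 0.00371). Its second probe set gave -0.58 and was not called (adjusted p 0.245).

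MFT1, a relative of the flowering regulator FT, was 5.25 and 4.62, against 6.62 and 7.05 (-1.90 ± 0.42, adjusted p 0.0342). SDH7, a succinate dehydrogenase subunit, was 7.58 and 7.21, against 9.39 and 9.03 (-1.81 ± 0.35, adjusted p 0.0245). Both had wide standard errors. The MFT1 call was lost without any 1 of the 4 submerged or the 2 non-submerged M202(Sub1) arrays (adjusted p 0.0696 to 0.146), and the SDH7 call without any 1 of the 4 submerged or the 2 non-submerged M202 arrays (0.0508 to 0.113).

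Some differences of the largest size were present with and without submergence. BURP17, a BURP-domain gene on chromosome 11, was 2.22 and 2.22 in submerged M202(Sub1), against 13.97 and 13.88 in submerged M202 (-11.70 ± 0.13, adjusted p 7.2e-06). Without submergence it was 2.22 and 2.60, against 12.06 and 12.15 in M202 (-9.70 ± 0.13, adjusted p 2.11e-05). Its probe set lay at or near the floor on all M202(Sub1) arrays, so neither value is a measured fold. HATB on chromosome 9 was 6.18 and 6.45 in submerged M202(Sub1), against 4.22 and 3.54 in submerged M202 (2.43 ± 0.24, adjusted p 0.00354), and differed by 2.13 ± 0.24 without submergence (adjusted p 0.0248). Among genes without a name, LOC4344943 on chromosome 8 was 13.69 and 13.64 in submerged M202(Sub1), 8.26 and 7.72 in non-submerged M202(Sub1) and 2.72 on all M202 arrays. LOC4346837 on chromosome 9 was 2.77 and 3.92 in submerged M202(Sub1), against 11.89 or more on both arrays of submerged M202.

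Without submergence the genotypes differed at 657 probe sets (1.91%). Of these, 359 were also called in the same direction after submergence, which is 54.6% of the calls without submergence and 5.04% of those with it, and 57 were called in the opposite direction. A difference between the 2 genotype differences, the interaction, was called for 4223 probe sets (12.3%) and 2840 genes (17.7%), positive for 1459 genes (9.1%) and negative for 1381 (8.61%), and 3771 of the 7123 submerged calls (52.9%) had a called interaction of the same sign. For 3062 submerged calls neither the interaction nor the non-submerged difference was called. The non-submerged count depended on single arrays. It was 1275 and 1107 without M202 non-submerged replicate 1 and 2, 1769 and 1461 without M202(Sub1) non-submerged replicate 1 and 2, and 395 and 396 without M202(Sub1) submerged replicate 1 and 2.

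**Figure D4:**
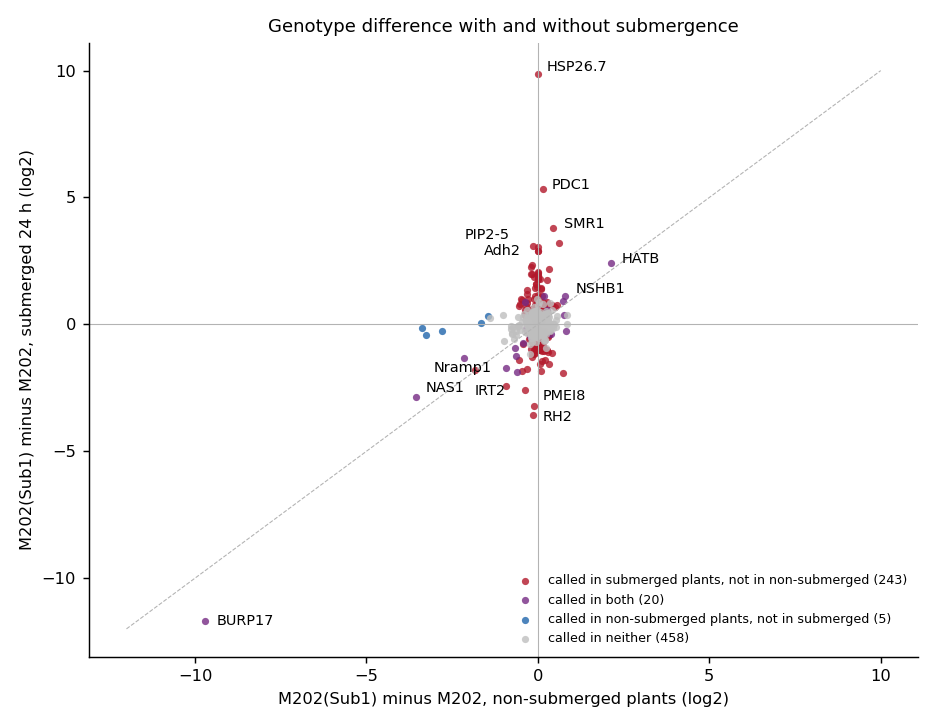
M202(Sub1) minus M202 difference after 24 h of submergence (vertical axis, log2) against the same difference without submergence (horizontal axis, log2) for 726 genes, those of the gene lists and those named by the rule; the dashed line marks equal differences. Most called genes lie near the vertical axis, with 243 called in submerged plants alone and 20 in both, while NAS1 and HATB lie near the dashed line and BURP17 lies far down on both axes, below the line.

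Calls shared with non-submerged plants lay unevenly along the genome. The share of genes called after submergence ran from 26.3% on chromosome 2 to 32.6% on chromosome 9, near the 29.3% over all chromosomes. Genes called with and without submergence in the same direction made up 1.14% of all (182 genes), but 5.15% on chromosome 12 (42 genes), 3.94% on chromosome 9 (34 genes) and 3.44% on chromosome 11 (25 genes). Of 313 windows of 50 neighbouring measured genes, 243 held none of these genes, and 12 windows with 5 or more held 93 of the 182. The share of genes called after submergence had a median of 47% (32% to 56%) in those 12 windows, against 28% (12% to 46%) in the windows with none. The shared genes are themselves counted in that share, so picking windows by them raises it, and the contrast is no separate result. The highest counts were 11 in the third window of chromosome 6 and 10 and 11 in 2 adjoining windows of chromosome 9, the chromosome that carries the SUB1 locus. BURP17 and NAC071 lay in a window of chromosome 11 that held 9 such genes, both of them included. HATB lay in the second of the 2 chromosome 9 windows.

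**Figure D5:**
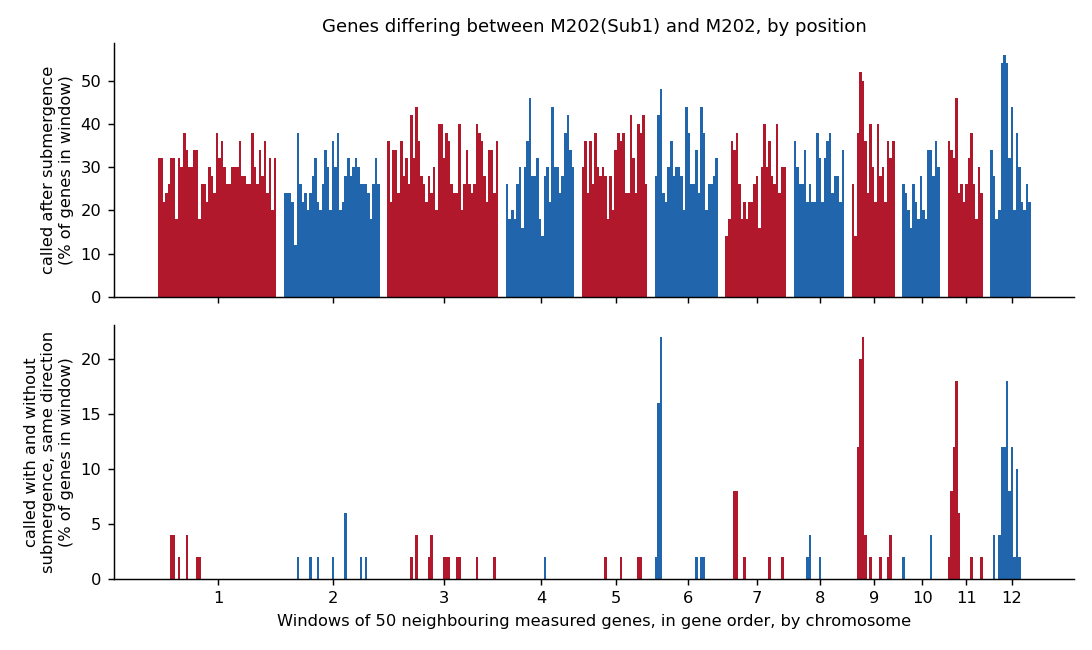
Bars show windows of 50 neighbouring measured genes in gene order along chromosomes 1 to 12 (alternating colours, horizontal axis), with the percentage of genes called between the genotypes after submergence above and the percentage called in the same direction with and without submergence below. The upper bars run from 12% to 56% over the whole genome. The lower bars are 0 in 243 of 313 windows, and the tallest of them stand on chromosomes 6, 9, 11 and 12.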

How the data were processed

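The deposited table held 1 log2 value per probe set and array on an Affymetrix rice array. Per the labels' protocols, biotin-labelled cRNA was made from total RNA of aerial tissue. GCRMA and MAS5 are listed in the submitters' processing notes without their roles, and versions and genome build are not given in the sources used here. Intensities per probe are not used here, and the number of arrays limits precision.

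limma 3.58.1 in R 4.3.3 was fitted to the deposited log2 values of all 8 arrays, with 1 mean for each of 4 groups and an intensity trend, leaving 4 residual degrees of freedom. Probe sets with a mean at or above the 40th percentile were tested, p-values were adjusted by Benjamini-Hochberg over these 34355, and the procedure was tested on simulated data. Differences are M202(Sub1) minus M202, with standard errors from limma.

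The platform annotation paired 22436 probe sets with exactly 1 gene, 95 with several and 34727 with none listed. Symbols came from RefSeq for 2399 of 17905 genes, and the probe set with the highest mean stood for a gene. Named genes were the 12 highest and 12 lowest calls, up to 2 calls in each direction per list, the fermentation, abscisic acid, gibberellin, ethylene and chlorophyll breakdown genes, and the 5 largest differences shared with non-submerged plants and the 5 largest interactions. The comparison, gene lists and rule were chosen with earlier results of these data known. Some list members matched only through a name of another family were taken out by name. Alternatives were other filters, floors, normalizations and variance models, a replicate block, fewer arrays and single arrays left out. Deviations of same-numbered replicates correlated between groups at 0.0078 to 0.178. With 2 arrays a group this cannot show whether the replicates were paired. Promoter sequence was not analysed here.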

Additional observations from a re-analysis of the deposited data

Results flagged for a closer look

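For 69 of the 91 named genes the genotype difference itself differed between submerged and non-submerged plants by limma's interaction test (adjusted p below 0.05), 41 with a positive and 28 with a negative interaction. Most of these genes were chosen for a called or large difference after submergence, and 5 for a large interaction, so their share is set by that choice and is no result, and over all genes 17.7% had a called interaction. The values below are the M202(Sub1) minus M202 difference in submerged plants minus that in non-submerged plants, on the log2 scale. No flag came from single arrays, since groups of 2 were too small for that.

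Among genes of fermentation, sugar and nitrogen metabolism, the interaction was 5.19 for PDC1, 2.89 for Adh2, 1.51 for PDC2, 1.34 for AldC-1, 1.22 for GAPC3, 0.19 for SUS4, -0.74 for SUS1 and 2.46 for TPP1. It was 2.52 for NRT2.3, 0.67 for NAR2.2, -0.95 for GLN1-2 and -0.39 for GLN2. Chlorophyll genes were negative, at -1.46 for SGR, -1.06 for RCCR1, -0.72 for NOL and -0.998 for PORA.

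Among genes of the abscisic acid and dehydrin lists it was 1.93 for PP2C51, 1.45 for ABA8OX1, 0.61 for SAPK3, 0.47 for SAPK6 and -1.001 for Dhn1. Gibberellin genes gave 0.73 for GA20OX2 and 0.65 for gid1. For the auxin, cytokinin, brassinosteroid and jasmonate lists it was 1.90 for IAA9, 1.97 for GH3.2, -1.19 for PIN5A, 2.15 for CKX5, 1.28 for RR9, -1.21 for LOGL7, 1.80 for BZR3, 0.76 for COI1 and -0.50 for OPR7.

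Cell wall genes gave -1.61 for EXP2, -3.08 for PMEI8, -1.63 for CAD8A, -1.55 for LAC4, 1.77 for CSLC9 and -0.50 for CESA1. Stress proteins gave 9.86 for HSP26.7, 1.74 for HSF07, 2.06 for Chib3H-a, 2.21 for Cht2, -0.85 for CAT-A and 0.49 for SODCC.2. Transporter and metal genes gave 3.24 for PIP2-5, -1.27 for Lsi6, -0.76 for Lsi1, -2.22 for IRT2, -0.80 for Nramp1, 1.01 for YSL12, 1.17 for HAK17 and -1.28 for MT1B.

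For regulators it was 0.76 for AP2-5, -0.61 for NAC071, 1.64 for BZIP02, 1.06 for PRR1, 0.81 for CRYD, -0.95 for CCA1, 3.04 for GRF7, 1.48 for CIPK12 and -1.87 for CIPK16. Other genes gave 1.13 for H2B.5, 3.35 for SMR1, 2.57 for HIRL2, 2.87 for PHT3, 1.86 for RBM8, -3.46 for RH2, -1.93 for MODD and -2.01 for BURP17, the last with a difference of the same sign in both settings. For BURP17, HSP26.7, PP2C51, Chib3H-a, GRF7, Adh2, PDC1 and NRT2.3 at least 1 group lay at or near a floor, so the size of the interaction depends on that floor. The non-submerged arrays of both genotypes all read the lowest value of the IAA9 probe set, so its interaction equals its difference after submergence.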

How the results depend on the processing

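Against 7123 calls after submergence, limma gave 5257 without a filter, 8102 with the stricter filter, 6408 with the raised floor, 7776 without probe sets held at a floor, 7585 after quantile normalization, 7134 without the trend and 7186 with robust estimates. Spike-in centring gave 14108 calls (1323 higher, 12785 lower), and the 4 submerged arrays alone 3000 (1454 and 1546). The interaction count fell to 2650 without a filter. Leaving out each array in turn gave 5192 to 6143 calls after submergence (2169 to 3163 higher, 2544 to 3053 lower), 395 to 1769 without submergence and 3096 to 4162 for the interaction. The fewest higher calls, 2169, came without M202 submerged replicate 2. With 2 arrays a group the lone array left was assumed to vary like the other groups.

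The replicate block over 8 arrays gave 6678 calls (3404 higher, 3274 lower), 462 without submergence and 3636 for the interaction, and among named genes it ended the call of MFT1 (adjusted p 0.0592). With the block on the 4 submerged arrays, which leaves 1 residual degree of freedom, limma called 0 (0 higher and 0 lower), while 8064 probe sets had an unadjusted p below 0.05.

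Of the 83 named genes called, 19 lost the call on the 4 submerged arrays alone, 4 without a filter (EIL1A, SDH7, ICL and MFT1) and 3 after spike-in centring, where 2 more changed sign, EIL1A to -0.086 and SUS4 to -0.069. The cause was not tested. Leaving out 1 submerged array ended 7 or 8 of these calls, and 1 non-submerged array 1 or 2. The robust and trend-free fits ended none of the 83. Probe sets near the floor give no level below it. After submergence 142 calls (1.99%) had a genotype held at the lowest value of the probe set, counting only lowest values below 3. For 19 called genes named in the text 27 further probe sets were tested: 14 were called in the same direction and 1 in the opposite one (NSHB1), and of the others, not called, 6 had the same sign and 6 the opposite one. The planned count of promoter motifs was not run.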
